A study of Mus musculus with 12 samples.

Results

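The 10 genes described here encode Siglecs and other cell surface receptors that come in inhibitory and activating pairs: Siglece, Siglec1, Siglecg, Cd33, Cd200r1, Cd200r4, Sirpa, Pilra, Cd300a and Cd300lf. They were taken by gene name from the 17920 genes listed for each of 12 mouse lung libraries, and all 10 were found. They were chosen by their names in a proposal made with the FPKM levels and the group comparisons of these same libraries in view. Every comparison of them between the groups is therefore a description, and the p-values printed with it are not independent support.

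Lung tissue came from male BALB/c mice aged 6 to 8 weeks and weighing 20 g, of which 24 were placed at random in 4 groups of 6. After 14 days, polyadenylated RNA was sequenced from 3 mice of each group, with 1 library per mouse. The groups were a control, 50 µL of lipopolysaccharide (LPS, from the outer membrane of Gram-negative bacteria) at 1 µg/µL, 200 mg/kg/day of bovine lactoferrin (bLF, a protein of milk that binds iron), and both agents (LPS+bLF). Doses are labelled for the single agents, and the labels do not state a dose for the combined group, the route of LPS or the day it was given.

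Siglecs are lectins that bind sialic acids, the sugars that cap glycans on host cells, and most of them carry a tyrosine motif (ITIM) that recruits the phosphatases SHP-1 and SHP-2 and dampens activating signals. The same logic is used by SIRPα, which binds CD47, by PILRα, and by several CD300 receptors, which bind lipids of cell membranes. CD200R1, which binds CD200, is also inhibitory but signals through Dok adaptors instead. Many of these receptors have an activating relative that pairs with the adaptor DAP12, encoded by Tyrobp; Cd200r4 is such a relative of Cd200r1. In the lung such receptors are found on alveolar and interstitial macrophages, monocytes, dendritic cells and granulocytes.

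Total counts were 16714327 to 17820645 per library, so that a gene with no count could still lie at 0.168 to 0.179 CPM (counts scaled to library size; the limit is 3 counts and covers counting error only). The lung epithelial gene Sftpc was at 95090 ± 29280 FPKM (SD, n = 3) in control. LPS replicate 1 stood apart from the other libraries: 3067 genes were at 0 in it, against 1499 to 1963 elsewhere. In that library the 10 neutrophil markers were on average 2.14 above the control mean on the log2 scale, against -0.33 and -0.17 in the other LPS libraries, and the 8 B cell markers were 1.76 below it (-1.76). LPS+bLF replicate 2 was high in B cell markers (2.02). Control replicate 2 was high in the lung epithelial gene Scgb1a1 (1056141.44 FPKM, against 68088.51 to 331490.3 elsewhere). Some libraries also held markers of tissue other than lung: 3 brown fat genes were 4.84, 3.89 and 5.64 above the control mean in control replicate 1, bLF replicate 1 and LPS+bLF replicate 2, heart muscle genes 4.93 and 3.98 above it in the latter pair, and skeletal muscle and squamous epithelium genes 7.97 and 9.85 above it in LPS+bLF replicate 3. The part of these tissues in the receptor values was not tested. The libraries are of bulk tissue, so more cells of a type cannot be told apart from more RNA per cell.

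Sirpa had the highest level of the 10 genes in each library, at 14.24 to 59.59 FPKM (fragments scaled to transcript length and library size, a scale on which genes can be compared). Siglece followed at 4.25 to 15.29 FPKM, above the other 8 genes in 11 of 12 libraries. Cd300lf, Pilra and Siglecg lay between 1.12 and 15.53 FPKM, and Cd300a, Cd200r1, Cd200r4, Cd33 and Siglec1 between 0.4 and 4.8 FPKM. All 10 genes passed the filter of at least 0.5 FPKM in at least 3 libraries. Their counts were 16 to 2777 per library. The summed level of the 10 genes was 35.1 to 55.76 FPKM in control, 81.34 to 105.2 in LPS, 49.14 to 49.91 in bLF and 66.27 to 68.49 in LPS+bLF, and much of each sum was Sirpa. The lowest control sum was that of replicate 2.

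**Figure D1:**
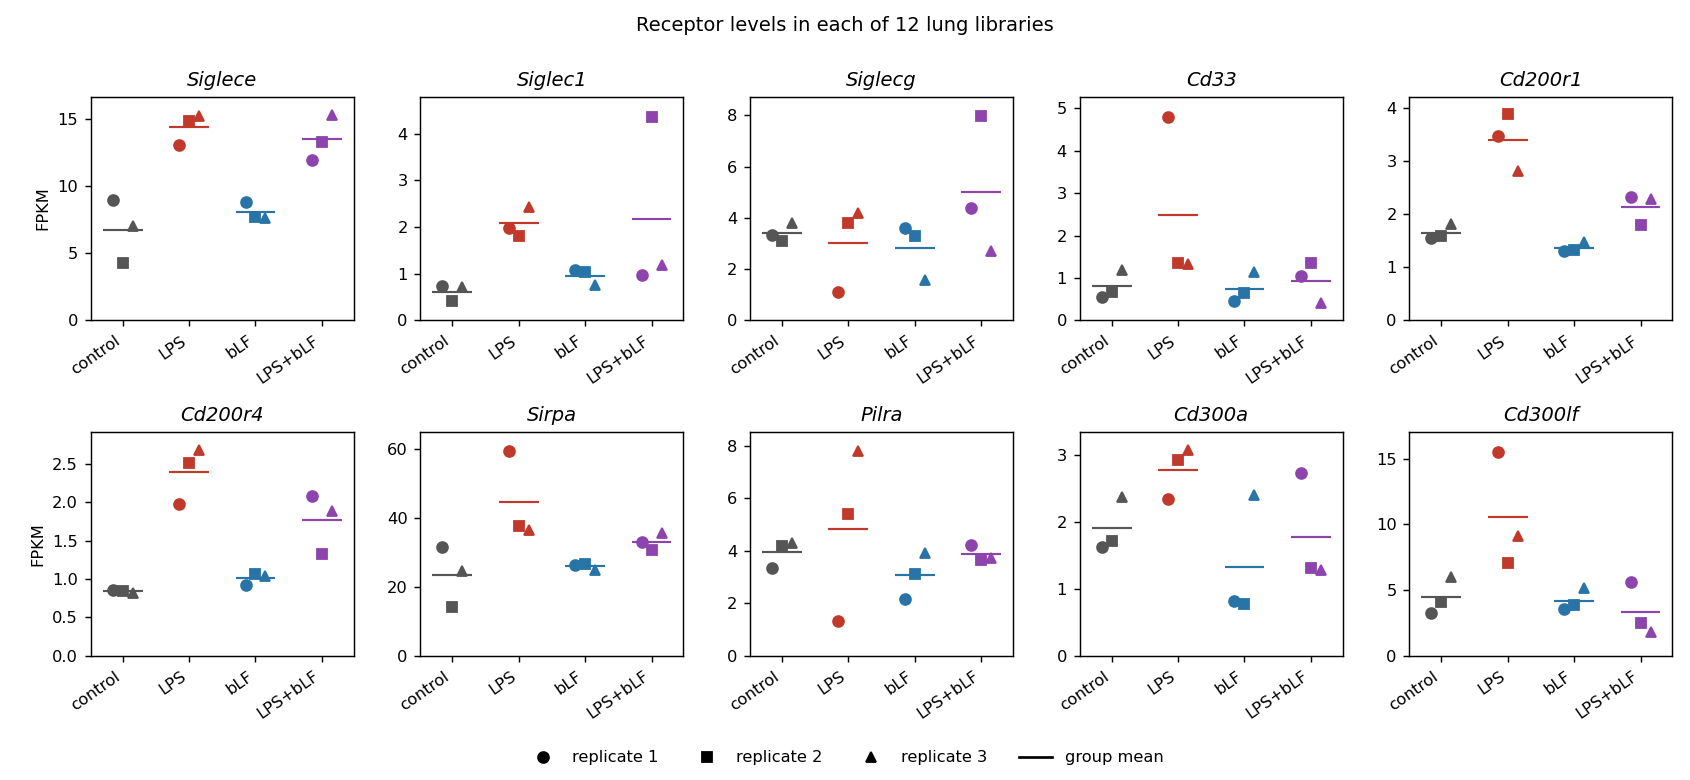
FPKM of each of the 10 receptor genes (vertical axes, each from 0, on separate scales) in the 12 lung libraries; marker shapes give the replicate number and lines the group mean of 3 libraries. Siglece and Cd200r4 lie above every control library in all LPS and all LPS+bLF libraries, and single libraries stand out for Cd33 and Cd300lf (LPS replicate 1) and for Siglec1 and Siglecg (LPS+bLF replicate 2).

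The upstream sequence of these genes is shown because 7 of the 10 were higher together in the LPS lungs. The RefSeq promoter table (GRCm38.p6, the mm10 build) matched 7 of the 10 genes by symbol, with 8 start sites. Of these, 2 belong to Siglecg and their sequences overlap. Cd200r1, Siglec1 and Sirpa had no entry, although all of their LPS libraries were above control. The genes searched include Siglecg, Pilra and Cd300a, whose LPS libraries overlapped control in FPKM. The 250 bases before each start were searched on both strands for GAGGAA, the core bound by the myeloid factor PU.1, for the composite of ETS and interferon regulatory factor sites (GGAA followed after any 2 bases by GAAA), which can overlap it, and for the interferon response core (the run GAAA repeated after any 2 bases). GAGGAA occurred in 6 of the 8 sequences, one for each of Siglece, Siglecg, Cd33, Pilra, Cd300a and Cd300lf, and in 23.3% of all 32851 promoter sequences of that length. The composite was found for Pilra alone among the 7 genes (2.3% of all promoters), as was the interferon response core (2.98%). Siglece, with 3 matches, and Cd200r4, with 0, are printed because both lay above every control library in all LPS and LPS+bLF libraries, together with Cd300lf, which was lowest in LPS+bLF, and Pilra, which held every motif. Each runs 5′ to 3′ on the gene's own strand and ends at the base before the start, with matches in capitals (TTCCTC is GAGGAA read on the other strand).
Siglece, minus strand, chr7:43660162-43660411: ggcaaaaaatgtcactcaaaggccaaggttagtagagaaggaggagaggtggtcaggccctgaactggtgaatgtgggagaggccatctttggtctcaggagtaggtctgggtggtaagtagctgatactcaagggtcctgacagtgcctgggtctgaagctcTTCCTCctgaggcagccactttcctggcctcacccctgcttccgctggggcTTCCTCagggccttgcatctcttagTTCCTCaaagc
Cd200r4, plus strand, chr16:44820478-44820727: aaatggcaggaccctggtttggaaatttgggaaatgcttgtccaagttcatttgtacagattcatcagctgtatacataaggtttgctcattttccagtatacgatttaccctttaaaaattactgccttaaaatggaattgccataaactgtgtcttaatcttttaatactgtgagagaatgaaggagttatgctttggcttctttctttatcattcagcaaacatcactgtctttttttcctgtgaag
Cd300lf, minus strand, chr11:115133993-115134242: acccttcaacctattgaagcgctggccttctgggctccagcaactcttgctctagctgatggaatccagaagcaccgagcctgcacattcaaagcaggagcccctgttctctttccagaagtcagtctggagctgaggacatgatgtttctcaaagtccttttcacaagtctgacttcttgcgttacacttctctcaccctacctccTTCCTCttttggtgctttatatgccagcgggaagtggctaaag
Pilra, minus strand, chr5:137836279-137836528: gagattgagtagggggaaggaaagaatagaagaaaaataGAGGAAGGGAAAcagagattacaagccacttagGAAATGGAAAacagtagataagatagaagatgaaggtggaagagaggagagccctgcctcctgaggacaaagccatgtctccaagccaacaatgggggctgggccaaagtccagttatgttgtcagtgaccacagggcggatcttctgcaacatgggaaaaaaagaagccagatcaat

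The table's start sites for Siglece and Cd200r4 lie inside the spans given for these genes, 11883 and 9078 bases from their outer 5′ ends. Those of Cd33, Cd300lf and Cd300a lie 4253, 1380 and 889 bases inside. Other start sites of these genes were not searched. In the Siglece sequence the 3 matches lie at -87 to -82, -36 to -31 and -11 to -6 from the start, and in the Cd300lf sequence the single match lies at -43 to -38. In the Pilra sequence GAGGAA at -211 to -206 overlaps the composite at -209 to -200, and the interferon response core lies at -178 to -169. A match of letters is a description of the sequence, and binding was not measured.

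LPS versus control asks how the lungs differed after LPS alone. Of the 10 receptors, 9 were higher in LPS and 1, Siglecg, was lower. Their median log2 fold change was 1.13, against -0.04 over all genes tested (45.8% of which were above 0). Without LPS replicate 1 all 10 were higher, with a median of 0.74. Overlap of groups is given for FPKM, which lacks the scaling for library composition (TMM) of the fitted values. Overlap of close values can therefore differ between the scales. In FPKM, for 7 receptors (Siglece, Siglec1, Cd33, Cd200r1, Cd200r4, Sirpa and Cd300lf) all 3 LPS libraries were above all 3 control libraries, as for 4% of the 13735 genes tested, and for 0 receptors they were all below (3.92% of genes). The same 7 had an unadjusted p under 0.05, against 5.52% of genes higher and 1.62% lower at that level. The proposal of the genes had these libraries in view, so nothing is read from these shares. At an adjusted p under 0.05 edgeR's quasi-likelihood test called 0 of the 10 and 0% of all genes, with 980 genes at an unadjusted p under 0.05. DESeq2 called 5 of the 10 as higher, with 0.946% of all genes (130) called higher and 0.0655% lower.

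Siglece, an ITIM receptor of neutrophils, monocytes and macrophages that is the mouse counterpart of several human CD33-related Siglecs (gene ID 83382, chromosome 7, 43648882 to 43672044, GRCm38), was at 8.95, 4.25 and 6.99 FPKM in control and 13.03, 14.83 and 15.17 in LPS. Its 3 LPS values were close together and all above control. It was at 8.81, 7.67 and 7.6 FPKM in bLF and 11.93, 13.27 and 15.29 in LPS+bLF. The groups thus formed a low pair and a high pair, and within each pair the values overlapped. From control to LPS the fitted log2 fold change of Siglece was 1.16 ± 0.19 (SE; 2.24-fold), with an edgeR adjusted p of 0.0859, and it stayed between 1.00 and 1.34 whichever library was left out. DESeq2 gave 1.18 with an adjusted p of 5.69e-06. Between LPS and LPS+bLF it was -0.14 ± 0.18 (edgeR adjusted p = 0.889).

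Siglec1, or sialoadhesin, a macrophage receptor with a long extracellular part and no ITIM that captures sialylated particles (ID 20612, chromosome 2, 131067801 to 131086778), was at 0.74, 0.41 and 0.71 FPKM in control and 1.99, 1.81 and 2.44 in LPS. All LPS values were more than double the highest control value. In bLF it was at 1.09, 1.04 and 0.76 FPKM, and in LPS+bLF at 0.97, 4.37 and 1.18. LPS+bLF replicate 2 was thus the highest of all 12 libraries, while the other LPS+bLF libraries were below every LPS library. Siglec1 had a fitted log2 fold change of 1.81 ± 0.51 from control to LPS (edgeR adjusted p = 0.433; DESeq2 0.0423) and 0.08 ± 0.49 from LPS to LPS+bLF (edgeR adjusted p = 0.988). Without LPS+bLF replicate 2 the value from LPS to LPS+bLF was -0.98 ± 0.28, and from control to LPS it was 1.65 to 1.97 whichever library was left out.

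Cd33, the founding member of the CD33-related Siglecs, found on myeloid cells (ID 12489, chromosome 7, 43527399 to 43537424), was at 0.56, 0.68 and 1.19 FPKM in control and 4.8, 1.35 and 1.32 in LPS. LPS replicate 1 was far above the rest, and the other LPS libraries were just above the highest control. It was at 0.46, 0.64 and 1.15 FPKM in bLF and 1.05, 1.36 and 0.4 in LPS+bLF, which overlap control. For Cd33 the fit gave a log2 fold change from control to LPS of 1.76 ± 0.68 (edgeR adjusted p = 0.655) with LPS replicate 1, and 0.65 ± 0.55 without it. Its LPS+bLF value against LPS was -1.51 ± 0.68 (edgeR adjusted p = 0.689) with that library, and -0.41 ± 0.55 without it.

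Siglecg, a Siglec of B cells that restrains signals of the B cell receptor (ID 243958, chromosome 7, 43408192 to 43418349), was the receptor with no increase in the LPS group mean. It was at 3.34, 3.1 and 3.81 FPKM in control, 1.12, 3.8 and 4.18 in LPS, 3.59, 3.28 and 1.56 in bLF and 4.38, 7.97 and 2.72 in LPS+bLF. The lowest values fell in LPS replicate 1 and bLF replicate 3 and the highest in LPS+bLF replicate 2, and all 4 groups overlapped. Fitted from control to LPS, Siglecg differed by -0.11 ± 0.47 (edgeR adjusted p = 0.928), and 0.22 ± 0.44 without LPS replicate 1. Against LPS, its LPS+bLF value was 0.89 ± 0.47 (edgeR adjusted p = 0.693), and was 0.33 ± 0.45 when LPS+bLF replicate 2 was left out or 0.56 ± 0.45 when LPS replicate 1 was. Its count was not whole in 3 libraries, the only such values among the 10 genes.

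Cd200r1, the inhibitory receptor for CD200 (ID 57781, chromosome 16, 44765736 to 44794977), was at 1.55, 1.58 and 1.82 FPKM in control, 3.47, 3.88 and 2.81 in LPS, 1.3, 1.32 and 1.47 in bLF and 2.32, 1.8 and 2.28 in LPS+bLF. The LPS libraries lay above all others. In FPKM the LPS+bLF libraries were between, below every LPS library and overlapping control by 1 library, and the bLF libraries were the lowest. On the scale of the fit, LPS+bLF lay above control and bLF overlapped control. Cd200r1 had a log2 fold change of 1.10 ± 0.25 from control to LPS (edgeR adjusted p = 0.214; DESeq2 0.006) and -0.69 ± 0.25 from LPS to LPS+bLF (edgeR adjusted p = 0.689).

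Cd200r4, an activating relative whose gene lies close to Cd200r1 (ID 239849, chromosome 16, 44811650 to 44839150), was at 0.86, 0.84 and 0.82 FPKM in control and 1.98, 2.51 and 2.68 in LPS. It was at 0.92, 1.06 and 1.04 FPKM in bLF and 2.08, 1.33 and 1.89 in LPS+bLF. Every LPS and LPS+bLF library was above every control and bLF library. The LPS and LPS+bLF groups overlapped in FPKM but not on the scale of the fit. Its fitted log2 fold change was 1.56 ± 0.27 from control to LPS (2.94-fold; edgeR adjusted p = 0.0957; DESeq2 0.000142), with 1.50 to 1.63 whichever library was left out, and -0.42 ± 0.26 from LPS to LPS+bLF (edgeR adjusted p = 0.719; -0.28 without LPS+bLF replicate 2). The means rest on 21.0 counts per library in control and 60.33 in LPS. Cd200r1 and Cd200r4 are close relatives, and how reads that fit several relatives were divided was not given in the sources used here.

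Sirpa, the CD47 receptor of macrophages and other myeloid cells that limits phagocytosis (ID 19261, chromosome 2, 129591042 to 129632228), was at 31.53, 14.24 and 24.63 FPKM in control, 59.59, 37.8 and 36.46 in LPS, 26.43, 26.62 and 24.89 in bLF and 33.18, 30.65 and 35.7 in LPS+bLF. In FPKM the LPS libraries were above all others, and LPS+bLF libraries were above bLF but overlapped control. On the scale of the fit, LPS+bLF overlapped LPS and lay above control (TMM factors 1.092 in LPS replicate 2 and 0.986 in LPS+bLF replicate 3). For Sirpa the log2 fold change from control to LPS was 1.04 ± 0.28 (edgeR adjusted p = 0.382; DESeq2 0.0486), and 0.63 ± 0.20 without LPS replicate 1. Set against LPS, LPS+bLF was at -0.49 ± 0.28 (edgeR adjusted p = 0.705), and -0.08 ± 0.20 without that library.

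Pilra, an inhibitory receptor of myeloid cells that binds sialylated O-glycoproteins (ID 231805, chromosome 5, 137821952 to 137836278), was at 3.34, 4.2 and 4.28 FPKM in control, 1.34, 5.39 and 7.79 in LPS, 2.17, 3.12 and 3.91 in bLF and 4.22, 3.64 and 3.74 in LPS+bLF. The LPS libraries held both the lowest and the highest value. The log2 fold change from control to LPS was 0.28 ± 0.44 (edgeR adjusted p = 0.795), 0.69 without LPS replicate 1 and -0.26 without LPS replicate 3. From LPS to LPS+bLF it was -0.27 ± 0.44 (edgeR adjusted p = 0.922), -0.68 without LPS replicate 1 and 0.25 without LPS replicate 3. Of its 3090 exon bases in the mm10 annotation, 468 (15.1%) are shared with Zcwpw1 on the opposite strand, which was at 0.39 to 2.32 FPKM. Whether the counting used strand was not given in the sources used here, so reads from that stretch cannot be assigned.

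Cd300a, an ITIM receptor that binds phosphatidylserine and phosphatidylethanolamine (ID 217303, chromosome 11, 114889152 to 114901946), was at 1.62, 1.71 and 2.38 FPKM in control, 2.35, 2.92 and 3.07 in LPS, 0.82, 0.78 and 2.4 in bLF and 2.73, 1.31 and 1.29 in LPS+bLF. All pairs of groups overlapped in FPKM, LPS and control by the single lowest LPS library (2.35 against 2.38). On the scale of the fit the LPS libraries lay above control (TMM factors 0.854 in LPS replicate 1 and 1.055 in control replicate 3). The log2 fold change was 0.60 ± 0.46 from control to LPS (edgeR adjusted p = 0.692) and -0.66 ± 0.46 from LPS to LPS+bLF (edgeR adjusted p = 0.745), where it was -1.07 without LPS+bLF replicate 1.

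Cd300lf, an ITIM receptor of the same cluster (also CLM-1) that binds ceramide and sphingomyelin (ID 246746, chromosome 11, 115116214 to 115135372), was at 3.27, 4.09 and 6.03 FPKM in control and 15.53, 7.05 and 9.09 in LPS. It was at 3.55, 3.88 and 5.13 FPKM in bLF and 5.63, 2.53 and 1.78 in LPS+bLF. The LPS libraries were above every other library, and both the lowest values belonged to LPS+bLF. The log2 fold change from control to LPS was 1.34 ± 0.47 (edgeR adjusted p = 0.602), and 0.79 ± 0.43 without LPS replicate 1. From LPS to LPS+bLF it was -1.80 ± 0.48 (edgeR unadjusted p = 0.00312, adjusted p = 0.689), and -1.25 ± 0.43 without that library. Cd300lf was the only one of the 10 whose mean in LPS+bLF (3.31 ± 2.04 FPKM, SD, n = 3) was the lowest of the 4 groups, and that group overlapped control and bLF.

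LPS+bLF versus LPS asks how lungs given both agents differed from lungs given LPS. Of the 10 receptors 8 were lower and 2, Siglec1 and Siglecg, higher, with a median of -0.45 against -0.02 over all genes (47.9% above 0). In FPKM, Cd200r1, Sirpa and Cd300lf were below every LPS library in all 3 LPS+bLF libraries, as were 4.91% of all genes, and 0 receptors were above (4.15% of genes). On the scale of the fit the Sirpa libraries of these groups overlapped. Cd33, Cd200r1 and Cd300lf had an unadjusted p under 0.05, against 3.65% of genes lower and 3.27% higher at that level. edgeR called 0 of the 10 and 0% of all genes at an adjusted p under 0.05, with 950 genes at an unadjusted p under 0.05, and DESeq2 called 0 of the 10 and 7 genes in all (0.0146% of genes higher, 0.0364% lower). This comparison shares the LPS libraries with LPS versus control, so a high LPS library gives opposite signs in both, and nothing is read from the opposite signs. The values of Cd33 and Sirpa above move toward 0 without LPS replicate 1.

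**Figure D2:**
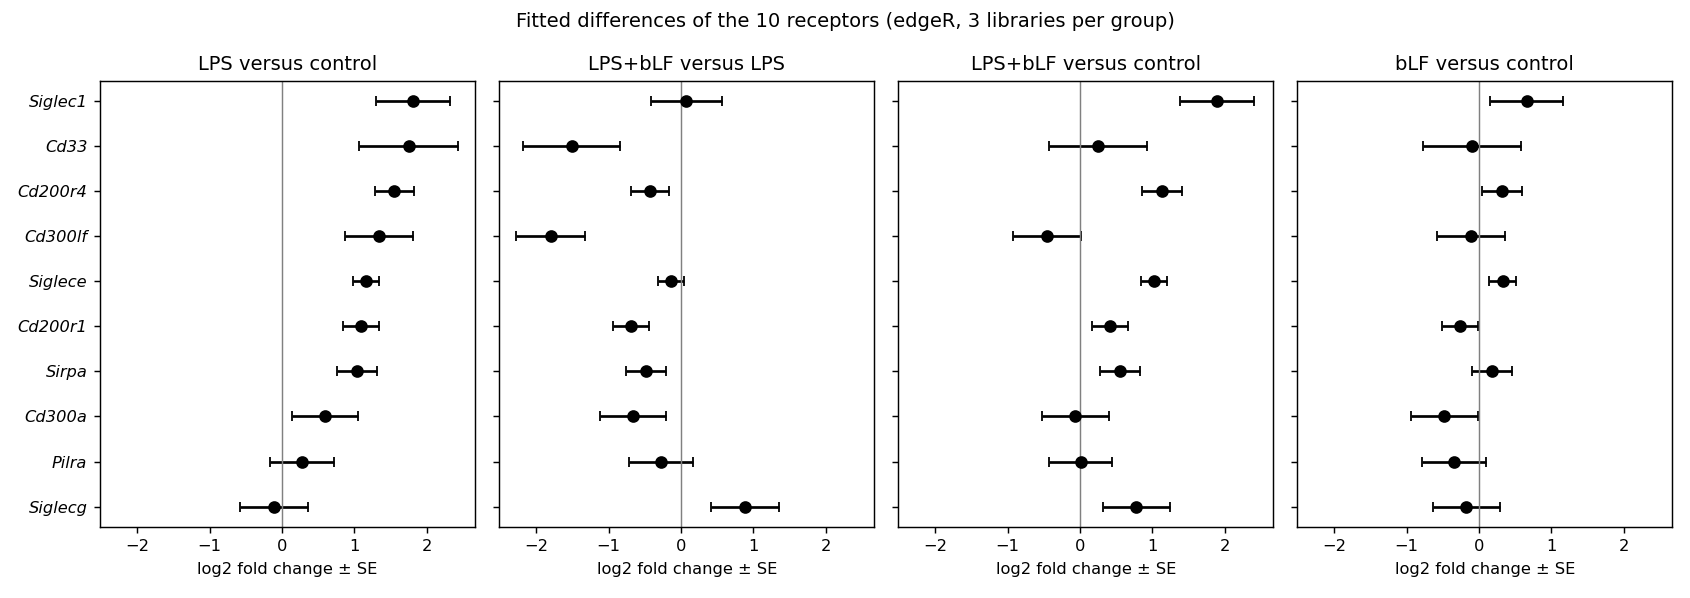
Fitted log2 fold change (horizontal axis) of the 10 receptor genes in 4 comparisons, as points with bars of 1 SE from edgeR with 3 libraries per group. From control to LPS 9 of 10 points lie above 0, and from LPS to LPS+bLF 8 of 10 lie below it; comparisons that share a group are not independent.

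LPS+bLF versus control uses no library of the LPS group, and shares the control libraries with LPS versus control. Siglece, Siglec1 and Cd200r4 were above every control library in all 3 LPS+bLF libraries, against 3.91% of all genes, and 0 receptors were below (7.8% of genes). These 3 also had an unadjusted p under 0.05 (2.63% of genes higher and 2.18% lower at that level). Siglece was higher by 1.02 ± 0.19, Cd200r4 by 1.14 ± 0.27 and Siglec1 by 1.89 ± 0.51 (log2 ± SE). Without LPS+bLF replicate 2 Siglec1 was at 0.83. The other receptors were at -0.46 (Cd300lf, -1.03 without LPS+bLF replicate 1) to 0.78 (Siglecg, 0.22 without LPS+bLF replicate 2). Over the 10, 8 were higher (50.3% of all genes), with a median of 0.48 against 0 over all genes. edgeR called 0 of the 10 and 0% of all genes (660 at an unadjusted p under 0.05; smallest adjusted p 0.832), and DESeq2 called Siglece (1.03, adjusted p = 0.00281) among 13 genes (0.0801% of genes higher, 0.0146% lower).

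Against bLF alone, LPS+bLF libraries were all higher for Siglece, Cd200r1, Cd200r4 and Sirpa, as for 5.13% of all genes, and all lower for 0 receptors (6.87% of genes). Of the 10, 9 were higher in the fit (52% of all genes), with a median of 0.54. The log2 fold changes were 0.70 ± 0.18, 0.67 ± 0.25, 0.82 ± 0.27 and 0.38 ± 0.28, and Siglec1 was at 1.23 ± 0.50. The Siglec1 value rests on LPS+bLF replicate 2, without which it was 0.17 ± 0.27. Siglece, Cd200r1, Cd200r4 and Siglec1 had an unadjusted p under 0.05 (1.65% of genes higher and 1.02% lower at that level). edgeR called 0 of the 10 and 0% of all genes (366 at an unadjusted p under 0.05), and DESeq2 called 0 of the 10 and 2 genes in all (0.0146% of genes, lower).

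bLF versus control asks what bLF did without LPS. Of the 10, 4 were higher (45.4% of all genes) and 6 lower, with a median of -0.11 against -0.03 over all genes (-0.24 to 0.16 with 1 library left out), and 0 had an unadjusted p under 0.05 (0.714% of genes were higher and 0.663% lower at that level). Siglec1 and Cd200r4 were above every control library in all 3 bLF libraries (2.21% of genes), by 0.66 ± 0.51 and 0.32 ± 0.27. In FPKM, Cd200r1 was below in all 3 (5.74% of genes). On the scale of the fit its bLF and control libraries overlapped, with a difference of -0.26 ± 0.25. edgeR called 0% of all genes (189 at an unadjusted p under 0.05), and DESeq2 called 1 (0.00728%), which was not one of the 10. The interaction, the bLF difference with LPS minus that without LPS, was -1.69 ± 0.66 for Cd300lf (edgeR unadjusted p = 0.0274, adjusted p = 1), and the other 9 had an unadjusted p of 0.0757 or more. Of the 10, 2 were above 0 (52.6% of all genes) and 8 below, with a median of -0.52 against 0.02. Without LPS replicate 1 the median was -0.32 and Cd300lf was at -1.13 ± 0.58. Over the genes tested, 1.54% were lower and 1.26% higher at an unadjusted p under 0.05 in the interaction, edgeR called 0 genes (384 at that unadjusted level), and DESeq2 called 1 (0.00728%), not one of the 10.

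Some lists of cell type markers differed between the groups in the same direction as the receptors, and others did not. Of the 12 monocyte and macrophage markers, 12 were higher in LPS than in control by edgeR fold change (median 0.80, 0 called) and 12 were lower in LPS+bLF than in LPS (median -0.39, 0 called). Their summed level was 185.3 to 256.9 FPKM in control, 295.0 to 478.1 in LPS, 232.8 to 242.4 in bLF and 225.4 to 349.2 in LPS+bLF, and none was at 0 in any group. The F4/80 gene Adgre1 was at 1.28 ± 0.46 FPKM in control and 4.05 ± 0.97 in LPS (SD, n = 3; log2 fold change 1.68 ± 0.30, edgeR adjusted p = 0.1), and the complement gene C1qb was higher by 1.26 ± 0.23. All 6 NK cell markers were higher in LPS (median 1.02) and lower in LPS+bLF than in LPS (median -0.76), with LPS replicate 1 at -2.34 against the control mean and the other LPS libraries at 1.60 and 1.51. The 6 dendritic cell markers split 3 and 3 in LPS (median -0.05), with LPS replicate 1 at -1.56 against the control mean and the other LPS libraries at 0.46 and 0.36. Of the 8 B cell markers 7 were lower in LPS (median -0.39), and 8 were higher in LPS+bLF than in LPS (median 1.43, 6 at an unadjusted p under 0.05, 0 called). Of the 6 T cell markers 5 were higher in LPS (median 0.22) and 6 higher in LPS+bLF than in LPS (median 0.58). The T cell list was at -1.77, 0.42 and 0.62 in LPS and at 0.15, 1.57 and 0.37 in LPS+bLF. Of the 10 alveolar macrophage markers 8 were higher in LPS (median 0.81) and 8 lower in LPS+bLF than in LPS (median -0.69). Against the control mean this list was at 1.24, -0.10 and 0.51 in LPS and at -0.28, 1.41 and -0.26 in LPS+bLF. Its gene Marco was at 249.39 FPKM in LPS replicate 1 and 0.38 and 1.31 in the other LPS libraries. Fabp4 was highest in the libraries high in brown fat genes (8180.21, 3325.51 and 13587.1 FPKM). Of the 10 neutrophil markers 7 were higher in LPS (median 0.67), but the list was above the control mean in replicate 1 alone of the LPS libraries. Of the NK cell, dendritic cell and neutrophil markers 0 were called by edgeR, and 0, 1 and 3 were higher in LPS than in control at an unadjusted p under 0.05. The 4 general leukocyte genes were on average 0.63 to 0.80 above the control mean in the LPS libraries and 0.45 to 0.99 above it in LPS+bLF.

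Relative to the mean of the 12 monocyte and macrophage markers in the same library, the LPS minus control difference was smaller for each receptor, since the difference of the markers is taken off. Siglec1 went from 1.80 on the log2 CPM scale to 0.97, and Cd200r4 from 1.48 to 0.65, and for both the LPS libraries remained above all control libraries. Siglece went from 1.18 to 0.35, Cd200r1 from 1.05 to 0.23 and Sirpa from 1.00 to 0.17, and their LPS and control libraries overlapped once set against the markers. Against the macrophage gene Csf1r alone, in place of the 12 markers, Siglece was at 0.95, Cd200r1 at 0.83, Cd300lf at 1.01 and Cd300a at 0.37, with all LPS libraries above control, and against the leukocyte gene Ptprc alone Siglece was at 0.78 and Cd200r1 at 0.65, also with no overlap. The overlap thus depends on the reference. Cd33 was at 0.56 and Cd300lf at 0.41, with overlap. Pilra (-0.80), Cd300a (-0.23) and Siglecg (-1.06) were lower relative to the markers, and Siglecg was below control in all 3 LPS libraries. From LPS to LPS+bLF the relative differences of Siglece (0.27), Siglec1 (0.15) and Sirpa (0.01) were above 0, those of Cd300lf (-1.37) and Cd33 (-0.84) were below it, and only Siglecg (1.28) did not overlap. Relative to the leukocyte genes, Siglece, Siglec1 and Cd200r4 were above control in all LPS libraries (0.48, 1.10 and 0.77), and Cd33, Cd200r1 and Cd300lf below LPS in all LPS+bLF libraries (-1.20, -0.60 and -1.73). The part of cell number in these differences was not tested.

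**Figure D3:**
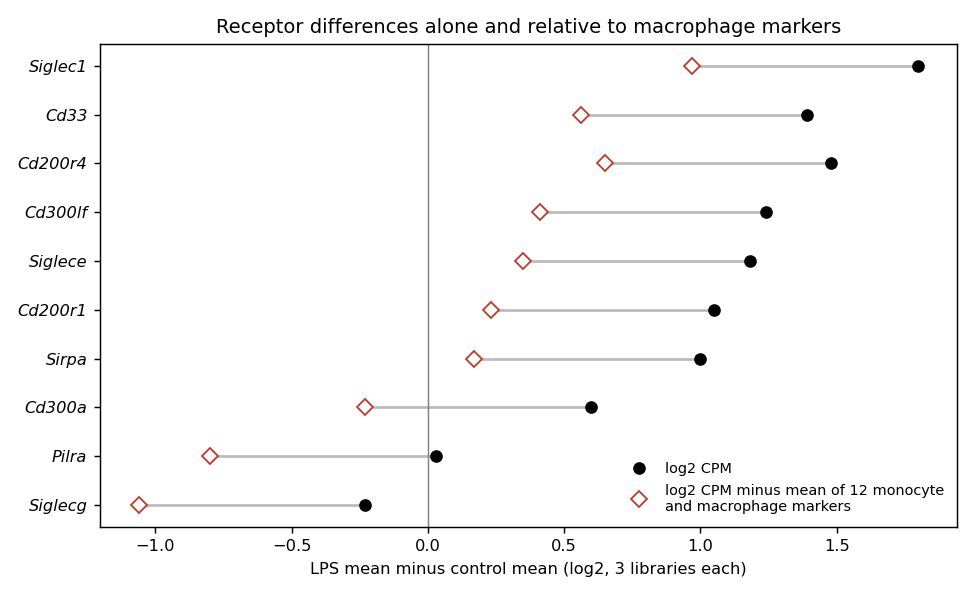
Difference between the LPS and control means of 3 libraries each (horizontal axis, log2) for the 10 receptor genes, as log2 CPM (filled circles) and after subtracting the mean of 12 monocyte and macrophage markers in each library (open diamonds). Set against the markers, Siglec1 lies at 0.97 and Cd200r4 at 0.65, while Siglecg lies at -1.06.

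The receptors differed in which cell type markers they followed across the libraries. These are Pearson correlations of log2 CPM over the 12 libraries, which share groups and tissue make-up, and they are given as a description. Siglecg had its highest r with the B cell markers (0.96, and 0.95 without LPS replicate 1), and next with the T cell markers (0.88, and 0.87 without it). By rank correlation (Spearman) the T cell markers led, at 0.83 against 0.76 for B cells. Its r was 0.71 with the dendritic cell markers (0.59 without that library) and 0.17 with the monocyte and macrophage markers (0.43). With the alveolar macrophage markers it was 0.21 (0.69 without that library). Siglec1 (r = 0.95) and Siglece (r = 0.86) were most like the leukocyte genes, and Cd200r4 (0.85) and Cd200r1 (0.79) most like the monocyte and macrophage markers. That order depends on the libraries used. Without the pair of libraries farthest from each list's median, Cd200r4 and Cd200r1 had 0.94 and 0.90 with the leukocyte genes. With the monocyte and macrophage markers they then had 0.75 and 0.74. Among the lists of blood cells, Cd33 and Cd300lf were most like the neutrophil markers (0.82 and 0.61), but without LPS replicate 1 these were 0.45 and 0.05. Cd300lf had a higher r with the endothelium markers (0.72, and 0.50 without that library). Pilra had 0.80 with the NK cell markers, and 0.62 without that library. With the monocyte and macrophage markers it had 0.30, and 0.68 without that library. Among the receptors themselves, Siglece and Cd200r4 (0.89), Cd200r1 and Cd200r4 (0.86), and Siglece and Sirpa (0.84) were most alike. Cd33 and Cd300lf had 0.84, and 0.66 without LPS replicate 1.

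**Figure D4:**
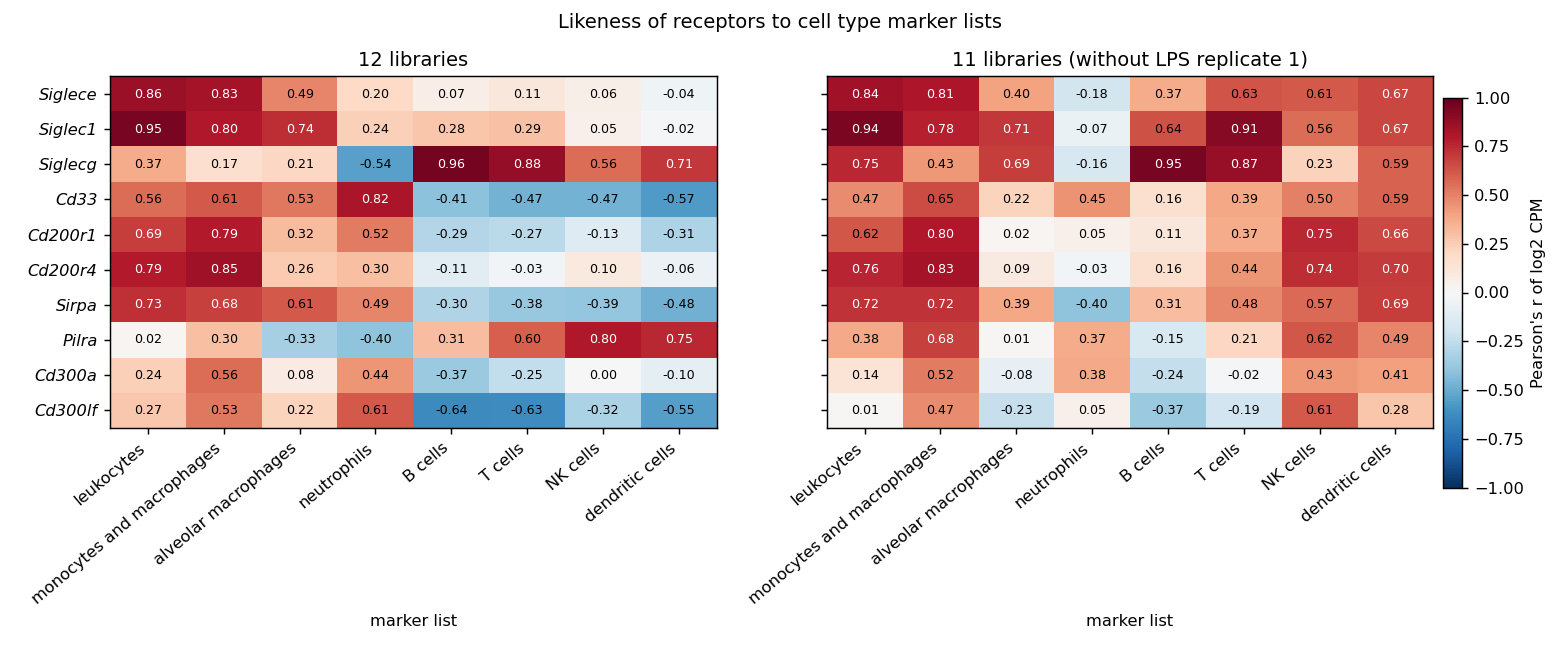
Pearson's r of log2 CPM between each receptor gene (rows) and the mean of each cell type marker list (columns), over 12 libraries (left) and over 11 without LPS replicate 1 (right). Siglecg is at 0.96 and 0.95 with the B cell list, and Cd33 with the neutrophil list goes from 0.82 to 0.45.

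Of 12251 other genes at a mean of at least 1 FPKM, those most like each receptor over the 12 libraries were also named by a fixed rule. For Siglece they were Il10ra, a chain of the interleukin-10 receptor (r = 0.973), Cyth4 (0.935) and Lcp1 (0.932). For Siglec1 they were the complement gene C1qa (0.946), Hcls1 (0.938) and Fyb (0.931). For Siglecg they included the B cell kinase Blk (0.976) and the co-stimulatory ligand Cd86 (0.958). For Sirpa they were Laptm5 (0.980), Mcemp1 (0.972) and the TNF receptor gene Tnfrsf1b (0.972). Cd200r1 was most like the macrophage gene Ms4a7 (0.925), Cd200r4 like the survival gene Bcl2a1d (0.934) and Cd33 like the adaptor gene Dok1 (0.962). Pilra was most like Itih4 (0.950), Cd300lf like Tnip2 (0.948), and Cd300a like Zfp36l2 (0.917) and then Sirpb1a (0.908), an activating relative of Sirpa. The libraries share groups, and likeness over 12 of them says nothing of shared function.

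The ligands and close relatives of the receptors were counted as lists. In the SIRP axis all 4 genes were higher in LPS (median 0.74, 1 at an unadjusted p under 0.05, 0 called). The ligand Cd47 was at 23.21, 23.57 and 23.7 FPKM in control and 33.41, 25.31 and 22.81 in LPS, which overlap. Sirpb1c, an activating relative, was at 1.72, 1.83 and 2.46 FPKM in control and 6.71, 3.04 and 5.98 in LPS, with no overlap (log2 fold change 1.44 ± 0.43, edgeR adjusted p = 0.48). The ligand Cd200 was at 22.31 ± 7.82 FPKM in control and 26.21 ± 4.74 in LPS (0.33 ± 0.23), and the other Cd200r genes of the list were below the filter. In the PILR axis 3 of 4 genes were higher (median 0.15), and Pianp, which encodes a PILRα ligand, was at 20.20 ± 6.01 and 26.46 ± 3.52 FPKM (0.46 ± 0.18).

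Of the 4 other Siglecs tested, 3 were higher and 1 lower in LPS (median 0.04, 0 called). Mag, best known from myelin, was at 1.81, 1.18 and 1.85 FPKM in control and 3.97, 3.18 and 2.73 in LPS, with no overlap (1.09 ± 0.29, edgeR adjusted p = 0.369). Siglech, of plasmacytoid dendritic cells, was higher in LPS+bLF than in LPS by 2.52 ± 0.69 (edgeR adjusted p = 0.689), with 8.28 FPKM in LPS+bLF replicate 2 and 2.15 and 1.62 in the others. Of 4 other CD300 genes tested, 2 were higher and 2 lower in LPS (median -0.22). Cd300c2 was at 9.22 ± 3.67 FPKM in control and 16.77 ± 2.71 in LPS, with no overlap (0.94 ± 0.29, edgeR adjusted p = 0.518), and at 10.69 ± 3.23 in LPS+bLF (-0.67 ± 0.29 from LPS).

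Other inhibitory receptors of myeloid cells were counted in the same way. Of the 10 of these that were tested, 9 were higher in LPS (median 0.72, 5 at an unadjusted p under 0.05, 0 called) and 10 were lower in LPS+bLF than in LPS (median -0.44, 2 at an unadjusted p under 0.05, 0 called). Fcgr2b, the inhibitory Fc receptor, was at 5.84, 5.38 and 8.84 FPKM in control, 14.39, 18.37 and 22.21 in LPS and 13.05, 11.37 and 9.61 in LPS+bLF. Its LPS libraries lay above both other groups and its LPS+bLF libraries above control (1.50 ± 0.25 from control to LPS, edgeR adjusted p = 0.0957; -0.70 ± 0.25 from LPS to LPS+bLF, adjusted p = 0.689). Havcr2, which encodes TIM-3, was higher in LPS by 1.35 ± 0.25 (edgeR adjusted p = 0.1) and lower in LPS+bLF than in LPS (-0.73 ± 0.25).

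All 4 activating adaptor genes were higher in LPS (median 0.91, 3 at an unadjusted p under 0.05, 0 called) and lower in LPS+bLF than in LPS (median -0.77). Syk, the kinase recruited by DAP12 and the Fc receptor γ chain, was at 8.02, 6.6 and 10.26 FPKM in control and 15.69, 14.58 and 15.64 in LPS, with no overlap (0.96 ± 0.19, edgeR adjusted p = 0.133). Hcst, which encodes DAP10, was at 15.04, 16.26 and 15.76 FPKM in control and 61.95, 33.11 and 19.6 in LPS (1.49 ± 0.46), highest in LPS replicate 1. Tyrobp varied widely, from 29.18 to 128.86 FPKM within control and from 45.46 to 220.34 within LPS. Of the 13 phosphatases, kinases and adaptors downstream of inhibitory receptors, 10 were higher in LPS (median 0.38, 4 at an unadjusted p under 0.05, 0 called). Fyb (0.88 ± 0.26) and Dok3 (1.09 ± 0.35) had the smallest p. Dok3 was at 34.15, 24.61 and 37.17 FPKM in control and 95.9, 44.3 and 44.79 in LPS, with LPS replicate 1 far above the others. Ptpn6, which encodes SHP-1, was at 22.69, 20.61 and 23.63 FPKM in control and 12.33, 28.71 and 31.77 in LPS, with LPS replicate 1 the lowest of all, and at 56.16 in LPS+bLF replicate 2. Ptpn11, which encodes SHP-2, was at 11.48 to 20.45 FPKM in control and 14.92 to 21.95 in LPS.

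The genes that make, transfer and remove the sialic acids bound by Siglecs did not share a direction. Of 19 tested, 8 were higher and 11 lower in LPS (median -0.02), and 9 higher and 10 lower in LPS+bLF than in LPS (median -0.02), with 0 called in either. Nans, the sialic acid synthase gene, was at 22.62, 21.64 and 23.41 FPKM in control and 44.51, 26.3 and 26.71 in LPS (0.63 ± 0.26, edgeR adjusted p = 0.665), with LPS replicate 1 far above the others. St3gal6, a sialyltransferase gene, was at 28.28 ± 1.56 and 20.79 ± 8.46 FPKM (-0.47 ± 0.23). Its LPS values were 11.3, 27.52 and 23.56 FPKM, with LPS replicate 1 far below the others, against 26.73, 28.25 and 29.85 in control. How far LPS replicate 1 shapes the counts of this list was not tested. Of 10 interferon-stimulated genes, a class to which Siglec1 is often counted, 8 were higher in LPS (list median 0.12), and 0 had an unadjusted p under 0.05. Rsad2 (0.81 ± 0.43) and Irf7 (0.64 ± 0.46) had the smallest p among them. Irf7 was at 20.2, 18.91 and 26.56 FPKM in control and 8.56, 31.23 and 62.78 in LPS, on both sides of control. Rsad2 was at 1.12, 0.56 and 1.47 FPKM in control and 2.17, 1.88 and 1.1 in LPS, highest in LPS replicate 1. The list median thus averages LPS libraries that differed widely.

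**Figure D5:**
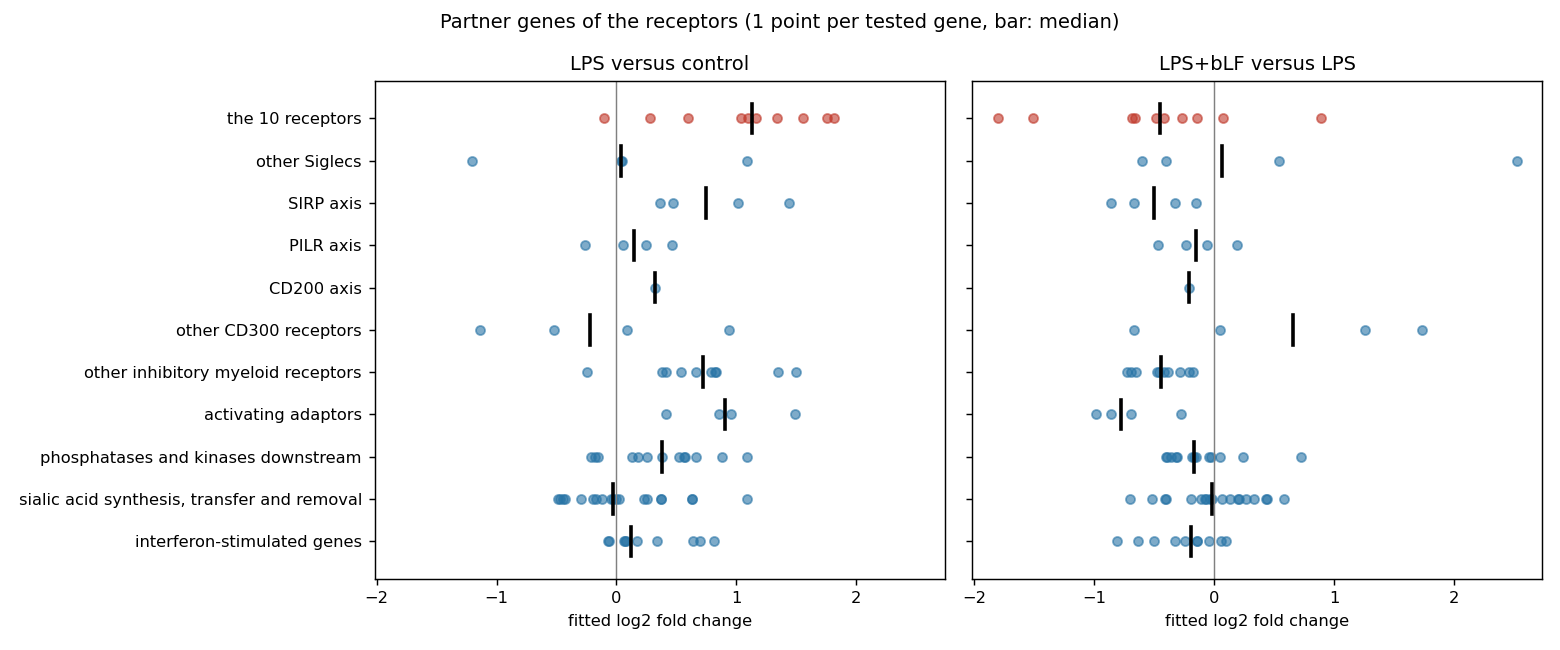
Fitted log2 fold change (horizontal axes) of the 10 receptor genes (red) and of the tested genes of each partner list (blue, 1 point per gene), with the list median as a bar, for LPS versus control (left) and LPS+bLF versus LPS (right). In LPS the receptors have a median of 1.13, the activating adaptors 0.91 and the other inhibitory receptors 0.72, while the sialic acid genes lie around 0 (median -0.02).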

How the data were processed

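RNA-seq of 12 lung libraries (4 groups of 3 mice) was used as deposited. Per the submitters' processing notes, HISAT2 2.1.0, RSEM 1.2.8 and the mm10 build were named, with no role or order; the gene annotation, strandedness and read length are not given in the sources used here. Per the file headers, each deposited table holds a count and an FPKM per gene. The counts deposited by the authors were treated like the expected counts that RSEM writes, because in each library 4.1 to 5.9% of them were fractional, and they were rounded. FPKM values were used as the authors deposited them, for levels and for whether groups overlapped. Overlap of levels relative to markers was judged on log2 CPM. The treatment label of the combined group reads LBS+BLF and its titles LPSBLF.

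The 13735 genes that reached 0.5 FPKM in 3 or more of the 12 libraries entered 1 edgeR 4.0.16 quasi-likelihood fit (R 4.3.3) of 4 group means with TMM scaling, 8 residual degrees of freedom, two-sided tests and Benjamini-Hochberg adjustment over all genes within a comparison. A call is an adjusted p under 0.05. SEs come from that fit. The common biological coefficient of variation was 0.352. Levels per library on the log2 CPM scale used a prior count of 2. TMM factors ran from 0.854 (LPS replicate 1) to 1.092 (LPS replicate 2), and FPKM was not scaled by them. Of the gene IDs, 17869 of 17920 matched the RefSeq table (GRCm38), which gave coordinates. Alternatives were DESeq2 1.42.0, limma 3.58.1 on log2(FPKM + 1) and log2(FPKM + 0.1), upper-quartile scaling, a mean of at least 5 FPKM or no filter, only the groups compared, a robust fit, a replicate block, and leaving out each library. The edgeR and DESeq2 code was tested on simulated counts.

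The 10 members and all lists were chosen with earlier results of these data known. All 10 are named; from each list, the 1 or 2 genes with the smallest unadjusted p at a mean of at least 1 FPKM; and for each member, up to 3 genes most like it. A gene that this rule names is not reported here. Cd47, Cd200, Tyrobp, Ptpn6 and Ptpn11 are also given as ligands, adaptor and phosphatases of the receptors. Mice are separate animals, so the tests set group differences against the spread between libraries of different mice in 1 experiment. That spread was estimated over the 4 groups together, and it also holds any uneven share of other tissue.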

Additional observations from a re-analysis of the deposited data

How the results depend on the processing

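With DESeq2 the number of genes called was 139 for LPS versus control, 7 for LPS+bLF versus LPS, 1 for bLF versus control, 13 for LPS+bLF versus control, 2 for LPS+bLF versus bLF and 1 for the interaction, where edgeR called 0 in each; of the 10 receptors it called 5 in LPS versus control and 1 in LPS+bLF versus control. limma on log2(FPKM + 1) called 2 genes in LPS versus control, and 0 receptors. Leaving out 1 library in turn gave 0 to 25 called genes for LPS versus control and 0 to 2 for LPS+bLF versus LPS, both highest without LPS replicate 1, and 0 receptors in each case. Set against Csf1r alone in place of the monocyte and macrophage list, 3 of the 10 receptors were higher in LPS+bLF than in LPS, where the list gave 5; against Ptprc alone 1 was higher, where the leukocyte list gave 2. The cause of these changes was not tested. Of 908 fold changes of single receptors under the alternatives, 897 moved by less than the spread between replicates, and 11 moved further, all with limma and a pseudocount. That spread was the largest SD among the groups compared, which a single outlying library widens. Cd33 from control to LPS, at 1.76 in the main fit and 0.65 without LPS replicate 1, thus counts as unmoved. As edgeR called 0 receptors, a sign change of a called value could not occur. Signs did change with 1 library left out, as for Siglecg in LPS versus control (-0.11 to 0.22) and Siglec1 in LPS+bLF versus LPS (0.08 to -0.98). Upper-quartile scaling left the directions of the 10 as they were except Pilra in LPS+bLF versus control, which was 0.01 in edgeR.

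The replicate numbers do not pair the libraries: over 18 same-numbered pairs the correlation of deviations ran from -0.694 to 0.571, and 2 of 12 libraries were most like their own number. With the replicate block edgeR called 0 genes and 0 receptors in each comparison. Counts of 16 to 182 per library for Cd33, Cd200r4, Cd300a and Cd200r1, and 3 mice per group, limit the precision.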
